A study of Mus musculus with 6 samples.

Results

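The genes described here are Trp53, which encodes the tumour suppressor p53, and 9 genes that p53 is known to act on or to be held back by: Mdm2, Mdm4, Cdkn1a, Bbc3, Bax, Ccng1, Zmat3, Sesn2 and Phlda3. They were chosen by name, 10 of the 27706 protein-coding and lincRNA genes in the annotation, and each was searched for H3K27ac peaks within 1 kb of any annotated transcription start site (TSS), inside the gene and within 50 kb on either side. H3K27ac, acetylation of histone H3 at lysine 27, is found at active promoters and enhancers. It was measured by ChIP-seq in E14 mouse embryonic stem cells (mESCs; the line E14Tg2A Rosa26-Cre Oct4-IRES-Puro, grown with LIF and inhibitors of MEK and GSK3). The study holds 2 samples each of control cells given DMSO, cells given 100 nM NVP-2 (an inhibitor of the kinase CDK9) and cells given actinomycin D (ActD, labelled 800 nM), all for 120 min and all with human HEK293 chromatin added as a spike-in. The data used here are the 22973 peaks of the control cells, given as 1 list for both control replicates. All samples come from a single cell line.

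p53 is a transcription factor that is kept scarce in unstressed cells, because Mdm2 tags it for degradation and both Mdm2 and its relative Mdm4 cover its activation domain. After DNA damage or other stress p53 accumulates and binds response elements, each made of a pair of similar half-sites, near genes that halt the cell cycle, repair DNA or start apoptosis. Mdm2 is itself such a target, which closes a negative feedback loop. Mouse ES cells are known to hold comparatively much p53 for unstressed cells.

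The sequences chosen to show what lies under the peaks at these genes are matches to the p53 response element. They are stretches that resemble the recognition sequence of p53 and lie inside promoter peaks of its listed targets. The element was taken as 2 half-sites of 10 bases with no spacer between them, and up to 2 mismatches in 20 bases were allowed. The consensus reads the same on both strands, so every match counts for both. Below, the 20 bases of each match are in capitals, in the 5′ to 3′ direction of the gene, with 20 bases of GRCm38 sequence on each side in lower case. Where an exon of another isoform lies within those 60 bases, the match alone is given.
Zmat3, intron 1, chr3:32364331-32364350, minus strand, 0 mismatches: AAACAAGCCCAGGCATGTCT
Cdkn1a, upstream, chr17:29090928-29090947, plus strand, 1 mismatch: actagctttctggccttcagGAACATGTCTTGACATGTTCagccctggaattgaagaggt
Mdm2, upstream, chr10:117711670-117711689, minus strand, 1 mismatch: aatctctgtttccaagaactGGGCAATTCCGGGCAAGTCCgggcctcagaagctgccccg
Ccng1, upstream, chr11:40755462-40755481, minus strand, 1 mismatch: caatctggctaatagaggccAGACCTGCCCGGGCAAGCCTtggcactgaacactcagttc
Ccng1, intron 1, chr11:40754936-40754955, minus strand, 1 mismatch: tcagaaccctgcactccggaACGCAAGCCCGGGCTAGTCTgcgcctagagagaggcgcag
Bbc3, intron 1 of the isoform with the most upstream TSS, chr7:16308693-16308712, plus strand, 2 mismatches: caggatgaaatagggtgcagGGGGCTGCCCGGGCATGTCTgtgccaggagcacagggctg
Bax, intron 1, chr7:45466574-45466593, minus strand, 2 mismatches: GGGCAGGCCCGGGCTTGTCG
These 7 were chosen from the 9 matches that lay inside a control H3K27ac peak within 5 kb of a TSS. Another 2 in the Cdkn1a peak, and 2 outside peaks, are described with their genes, as is the distance of each from its TSS. The coordinates are those of the 20 bases. A match is a stretch of sequence, and binding of p53 was not measured in these data.

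All 10 genes had a control H3K27ac peak at a promoter, here called a marked promoter (95% Wilson interval 72.2 to 100%, counting error only). Of all 27706 genes, 43.6% had one, and of the protein-coding genes 51.0%. The 10 genes and the lists below were named with earlier results of these data known, not drawn at random. Such intervals therefore do not extend to other genes. Each of the 10 also had at least 1 annotated TSS inside a peak, against 40.4% of all genes. Together the genes have 26 annotated TSSs at which protein-coding or lincRNA transcripts start, of which 23 lay inside a peak and 25 within 1 kb of one. The exception was the TSS of Mdm4 at -5223 bp from that of its longest isoform, which lay 2036 bp from the nearest peak. In all, 55 peaks were assigned to the genes: 10 at promoters, 4 elsewhere in the gene and 41 in the flanks.

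**Figure D1:**
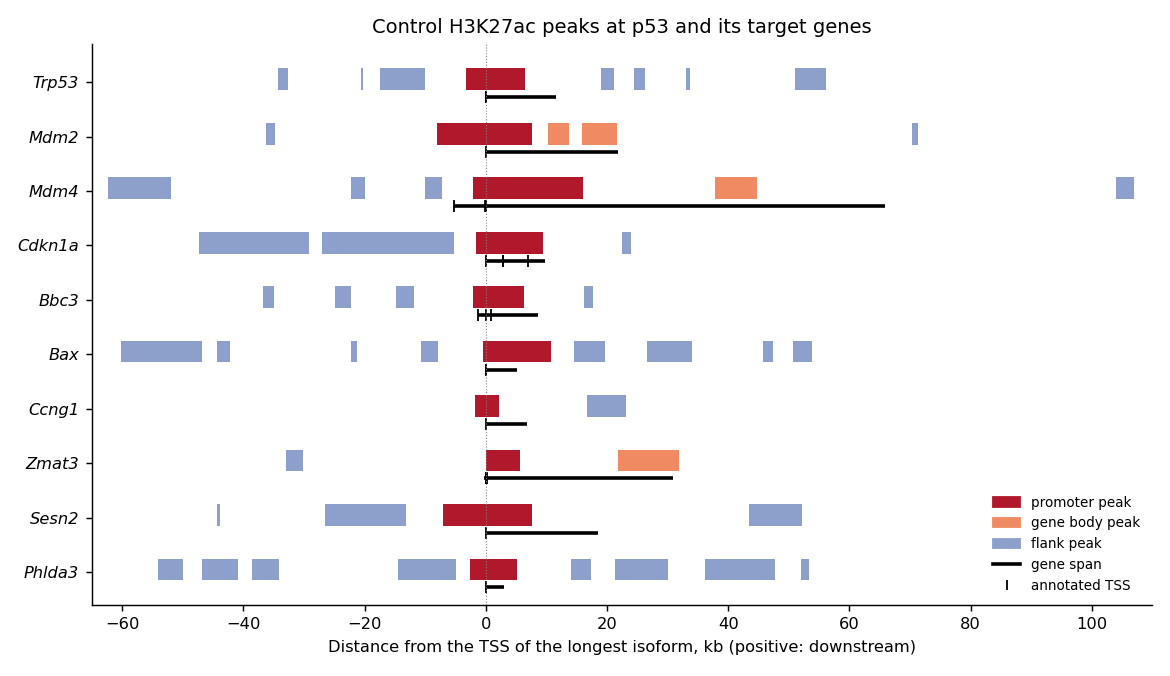
Control H3K27ac peaks around the 10 genes, by distance in kb from the TSS of the longest isoform, with downstream to the right. Bars are peaks at a promoter of the gene (red), elsewhere in the gene (orange) or within 50 kb of it (blue), black lines are gene spans and ticks are annotated TSSs. Every gene has a red bar at or next to 0, with widths from 3920 bp at Ccng1 to 18210 bp at Mdm4.

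The promoter peaks were wide. Their median width was 10335 bp, with a range of 3920 to 18210 bp, while the median over the 12071 genes with a marked promoter was 2297 bp and the quartiles were 1580 and 5180 bp. All 10 were wider than that median and 9 were above the upper quartile, the exception being Ccng1. A promoter peak of at least 10 kb was found at 5 of the 10, Mdm4, Mdm2, Sesn2, Bax and Cdkn1a, against 5.14% of all genes and 11.8% of genes with a marked promoter. The list has a single value per gene, so none of these widths has a replicate error and no test was made. The authors merged peaks within 2 kb of each other, and no 2 peaks of the list were closer than 2001 bp, so a wide peak can be several adjacent ones.

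**Figure D2:**
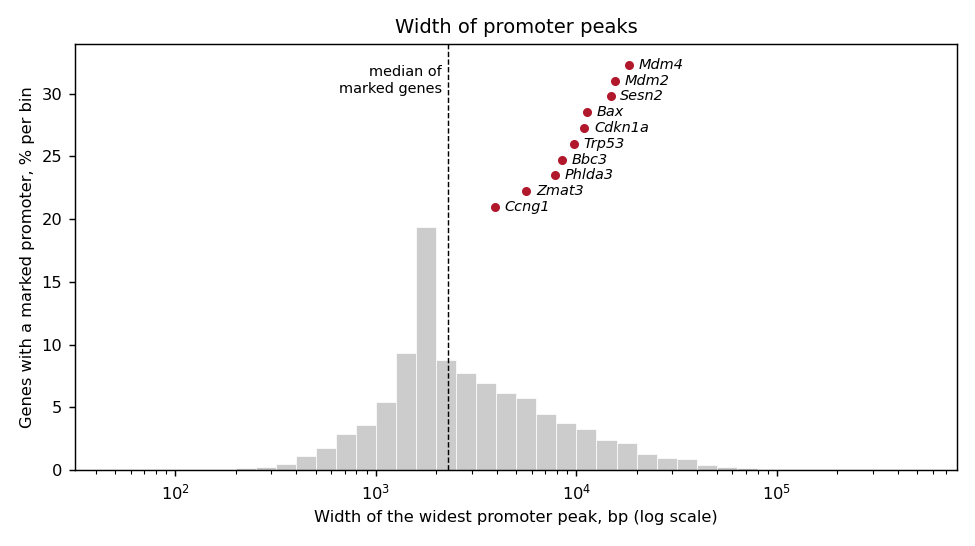
Widths of promoter peaks on a log axis in bp. Grey bars give the share of the 12071 genes with a marked promoter in each bin, the dashed line is their median of 2297 bp, and the red points, set above the bars for legibility, are the 10 genes. All 10 points lie to the right of the line.

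At 9 of the 10 genes the promoter peak reached further downstream of the TSS than upstream, and Mdm2 was the exception. The same lean was found at 67.7% of genes with a marked promoter, and at Sesn2 and Ccng1 it amounted to less than 1 kb. At 2 kb downstream of the TSS 10 of the 10 genes were covered by a peak and at 4 kb downstream 9 were, compared with 29.4% and 18.8% of genes with a marked promoter. At 2 kb upstream 6 of the 10 were covered and at 4 kb upstream 2, compared with 22.8% and 14.7%. Over the 10 kb centred on the TSS, a median of 70.8% of the bases was covered at the 10 genes (39.2 to 100%), and 23.2% at genes with a marked promoter.

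**Figure D3:**
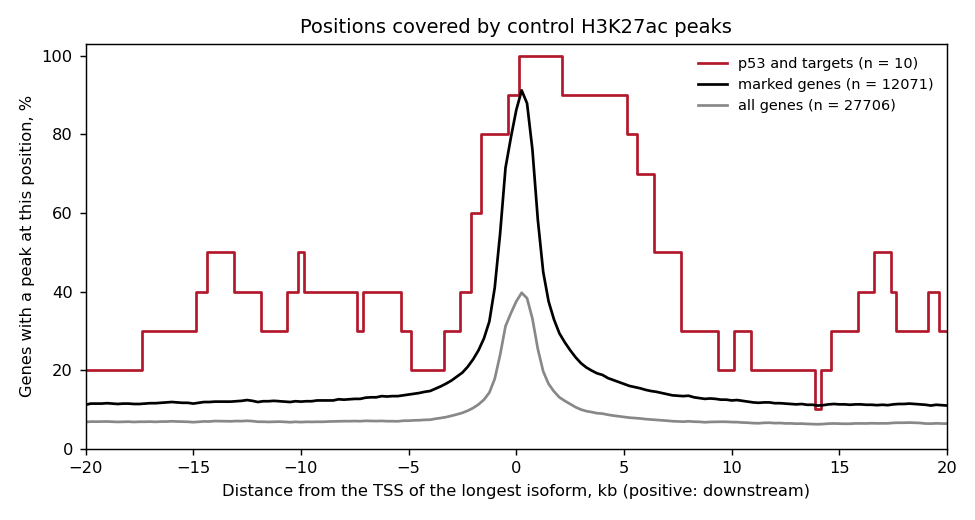
Share of genes with a control peak at each position from 20 kb upstream to 20 kb downstream of the TSS, in steps of 250 bp. The red line is the 10 genes, the black line the 12071 genes with a marked promoter and the grey line all 27706 genes. From the TSS on, the red line stays at 90% or above until beyond 4 kb downstream, where the black line is at 18.8%.

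Trp53 itself (ENSMUSG00000059552.13, chr11:69580359-69591873, plus strand) lay under a peak of 9702 bp, chr11:69577067-69586768, which started 3.29 kb upstream of the TSS and ended 6.41 kb downstream. It covered 55.7% of the gene, all on its 5′ side, and was wider than 87.7% of the promoter peaks of marked genes. The peak is shared with Wrap53, a gene needed for telomerase assembly that is transcribed in the opposite direction from next to Trp53, so the mark cannot be assigned to 1 of the 2 promoters. No peak lay elsewhere in Trp53. Within 50 kb there were 7 further peaks, of 468 to 7438 bp, in a stretch that holds the TSSs of 7 other genes, which is at percentile 94.2 over all genes (median 2). Of these peaks, 3 were at promoters of other genes (Efnb3, Atp1b2 and Fxr2), 3 inside other genes and 1 in neither. No match to the p53 response element lay within 5 kb of the Trp53 TSS.

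The p53 inhibitors Mdm2 and Mdm4 had the widest promoter peaks of the 10. Mdm2 (ENSMUSG00000020184.15, chr10:117688875-117710758, minus strand), the ubiquitin ligase of p53, had a promoter peak of 15581 bp, chr10:117703170-117718750, that reached 7.99 kb upstream and 7.59 kb downstream. All bases within 5 kb of its TSS were covered. Another 2 peaks lay inside the gene, of 3598 bp at 10.2 kb (intron 6) and of 5897 bp at 15.8 kb (intron 10) from the TSS, so that 78.1% of the gene was under H3K27ac peaks. The match shown above lies at -931 bp from the TSS. The promoter peak held another pair of matches that overlap each other, at -6997 bp with 1 mismatch and at -6987 bp with 2, and the peak in intron 6 held a match with 1 mismatch 10818 bp downstream of the TSS.

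Mdm4 (ENSMUSG00000054387.13, chr1:132959484-133030561, minus strand), which binds p53 but is a weak ligase by itself, had the widest promoter peak of the 10 at 18210 bp, chr1:133009188-133027397. It was wider than 95.2% of those of marked genes and reached 2.06 kb upstream and 16.1 kb downstream. Because the gene is long, at 71.1 kb, this peak covered 25.6% of it, and with a peak of 6793 bp in intron 10 the covered share was 35.2%. Mdm4 had no match within 5 kb of the TSS, but overlapping matches with 1 mismatch each lay just beyond that limit, 5014 and 5024 bp downstream, and another with 1 mismatch 5878 bp downstream. All 3 were inside the promoter peak, as was a match with 2 mismatches 8701 bp downstream. The overlapping pair, shown as the 20 bases of the nearer match in capitals, lies in an intron:
Mdm4, chr1:133020305-133020324, minus strand, 1 mismatch: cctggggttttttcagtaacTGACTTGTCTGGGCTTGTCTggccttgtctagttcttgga

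The cell cycle genes Cdkn1a and Ccng1 both had p53 matches within 1 kb of the TSS inside the promoter peak, but their peaks differed in width. Cdkn1a (ENSMUSG00000023067.14, chr17:29090976-29100727, plus strand) encodes p21, the cyclin-dependent kinase inhibitor that carries out the p53-dependent arrest. Its peak of 10968 bp, chr17:29089428-29100395, started 1.55 kb upstream of the TSS, ran 9.42 kb downstream and covered 96.6% of the gene. Matches to the p53 element lay at -51 bp with 1 mismatch, and 836 and 1220 bp downstream with 2 mismatches each. These were the most matches inside peaks within 5 kb for any of the 10 genes. Beside the TSS of the longest isoform, the peak contains 3 further TSSs of protein-coding Cdkn1a transcripts, and 1 of a processed transcript at -3 bp that was not counted. The sequences before the first and before an internal TSS differ in composition, as shown here from the RefSeq promoter table (GRCm38.p6) with each CpG in capitals. The first is cut at the first annotated exon of the gene, to 247 bases, and the other has 250.
Cdkn1a, before the first TSS, chr17:29090729-29090975, plus strand: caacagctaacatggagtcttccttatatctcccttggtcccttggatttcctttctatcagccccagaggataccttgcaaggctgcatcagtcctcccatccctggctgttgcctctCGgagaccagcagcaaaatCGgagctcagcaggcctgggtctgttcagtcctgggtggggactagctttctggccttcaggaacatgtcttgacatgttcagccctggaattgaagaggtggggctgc
Cdkn1a, before the TSS 2790 bp further downstream, chr17:29093519-29093768, plus strand: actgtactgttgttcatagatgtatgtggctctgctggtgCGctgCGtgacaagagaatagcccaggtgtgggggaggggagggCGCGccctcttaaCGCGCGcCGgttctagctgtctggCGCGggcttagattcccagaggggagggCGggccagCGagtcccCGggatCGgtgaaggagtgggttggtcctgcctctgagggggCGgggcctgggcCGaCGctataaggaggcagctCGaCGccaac
The first holds 2 CpGs and the other 19, against a median of 6 in the 250 bases before the start of the 32851 promoters of that table. Within 1 kb of the first TSS the ratio of observed to expected CpG was 0.15, the lowest of the 10 genes and the only one below the median of all genes, 0.371. The p53 match at -51 bp lies in this CpG-poor stretch.

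Upstream of Cdkn1a the peaks were wider than at its promoter. A peak of 21697 bp covered -27.0 to -5.28 kb from the Cdkn1a TSS and holds the promoter of Trp53cor1, the p53-induced noncoding RNA also called lincRNA-p21. A peak of 18145 bp covered -47.3 to -29.2 kb and holds the promoter of AC167363.1. They were wider than 98.4% and 97.6% of all peaks of the list. With them, 47.7% of the bases from 50 kb before to 50 kb after Cdkn1a were under peaks, a share above that of 99.2% of all genes. Downstream, a peak of 1495 bp lay at the promoter of Rab44.

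Ccng1 (ENSMUSG00000020326.7, chr11:40748552-40755311, minus strand) encodes cyclin G1, which brings the phosphatase PP2A to Mdm2. It had the narrowest promoter peak of the 10, 3920 bp at chr11:40753120-40757039, from 1.73 kb upstream to 2.19 kb downstream. This was still wider than 67.5% of promoter peaks of marked genes. The peak held 2 matches with 1 mismatch each, at -170 bp and 356 bp from the TSS, while a match with 2 mismatches at -4341 bp lay outside peaks. Of the gene and 50 kb on each side 9.7% was under peaks, the lowest share of the 10 genes, and the single flank peak, of 6437 bp, lay at the promoters of Nudcd2 and Hmmr.

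The apoptosis genes Bbc3, Bax and Phlda3 were covered by their promoter peaks over most or all of their length. Bbc3 (ENSMUSG00000002083.13, chr7:16308393-16318205, plus strand) encodes Puma, a BH3-only protein that frees Bax to act. Its peak of 8436 bp, chr7:16307507-16315942, covered 76.9% of the gene and all 3 of its counted TSSs, and its promoter had the highest GC content of the 10, 64.5%. The match at -923 bp from the TSS of the longest isoform lies downstream of the first TSS of the gene. Both mismatches of this match are among the central bases of its upstream half-site. With at most 1 mismatch allowed, Bbc3 had no match in a peak within 5 kb. Bax (ENSMUSG00000003873.11, chr7:45461697-45466898, minus strand) encodes the protein that permeabilises the outer mitochondrial membrane. Its peak of 11260 bp, chr7:45456107-45467366, reached 0.468 kb upstream and 10.8 kb downstream, covered 100% of the gene and also held the promoter of the next gene, Ftl1, which encodes the ferritin light chain. The width at Bax therefore belongs to both genes. The match with 2 mismatches lies 305 bp downstream of the TSS, in intron 1 of the longest isoform, where it overlaps an exon of another isoform.

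Phlda3 (ENSMUSG00000041801.5, chr1:135766119-135769136, plus strand) encodes a small protein that competes with the kinase Akt for membrane lipids. The peak of 7793 bp, chr1:135763511-135771303, covered the whole gene of 3.02 kb. Its flanks had the largest share of bases under peaks of the 10 genes, 49.6% of the 50 kb on each side, with 8 flank peaks. With the gene included the share was 51.1%, more than at 99.4% of all genes. The nearest, of 9384 bp, ended 4.97 kb upstream inside the neighbouring gene Csrp1, which encodes a muscle-related LIM protein, and the widest, of 11693 bp, lay at a promoter of Tnni1, which encodes slow skeletal troponin I. Phlda3 had no p53 match within 5 kb of the TSS. Just beyond the limit, matches with 2 mismatches lay at -5016 and -6250 bp, both inside that flank peak.

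Zmat3 and Sesn2 act outside the cell cycle and apoptosis machinery. Zmat3 (ENSMUSG00000027663.12, chr3:32334792-32366014, minus strand) encodes an RNA-binding zinc-finger protein. It was the only one of the 10 whose longest isoform started outside its promoter peak, which spanned 5615 bp, chr3:32359977-32365591, from 87 bp to 5.7 kb downstream of that TSS. Another annotated TSS lay inside the peak. Inside it too, 1328 bp downstream of the TSS, lay a match without a mismatch. It was the only such match without a spacer found within 5 kb of any of the 10 genes. With a spacer of 12 bases, the Cdkn1a promoter peak held another with 0 mismatches, at -73 bp. The Zmat3 match is in intron 1 of the longest isoform and overlaps an exon of a transcript with a retained intron. A match with 1 mismatch at -4492 bp was outside peaks. In the 50 kb on each side of the gene 3.75% of the bases were under peaks, the lowest share of the 10, and the next lowest was 8.16% at Ccng1. A second and wider peak of 9936 bp lay at the 3′ end of the gene, 21.9 kb from the TSS, and was wider than 92.4% of all peaks.

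Sesn2 (ENSMUSG00000028893.8, chr4:132492032-132510501, minus strand) encodes a sestrin that restrains the growth kinase mTORC1 under stress. Its peak of 14791 bp, chr4:132502793-132517583, was nearly symmetric, from 7.08 kb upstream to 7.71 kb downstream, and covered all bases within 5 kb of the TSS. It was wider than 93.3% of promoter peaks of marked genes. No match without a spacer and with at most 2 mismatches lay inside this peak or within 5 kb of the TSS. At this setting a wide promoter peak and a match did not always go together. With a spacer of 11 bases, a match with 1 mismatch lay inside the peak at -5163 bp. With 3 mismatches allowed, Sesn2 had a match in a peak within 5 kb. A flank peak of 13564 bp at the promoters of Dnajc8 and Atpif1 lay 13.1 kb upstream.

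Across the 10 genes, 6 had a match to the p53 element within 5 kb of the TSS (Mdm2, Cdkn1a, Bbc3, Bax, Ccng1 and Zmat3), compared with 29.4% of all genes. All 6 had a match inside a peak. Thus 6 of the 10 genes had one, compared with 5.13% of all genes and 11.4% of genes with a marked promoter. Of genes with a marked promoter and a match within 5 kb, 37.6% had one in a peak, and of all genes with a match 17.5%. There were 11 matches within 5 kb of the 10 TSSs, of which 9 were in peaks, and the other 2 were those upstream of Ccng1 and Zmat3. The number of genes depended on the mismatches allowed: it was 4 of 10 with at most 1 mismatch, against 0.754% of all genes, and 10 of 10 with at most 3, against 22.4%. The genes are well-known p53 targets, several with response elements described before, so the matches are not an independent finding.

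**Figure D4:**
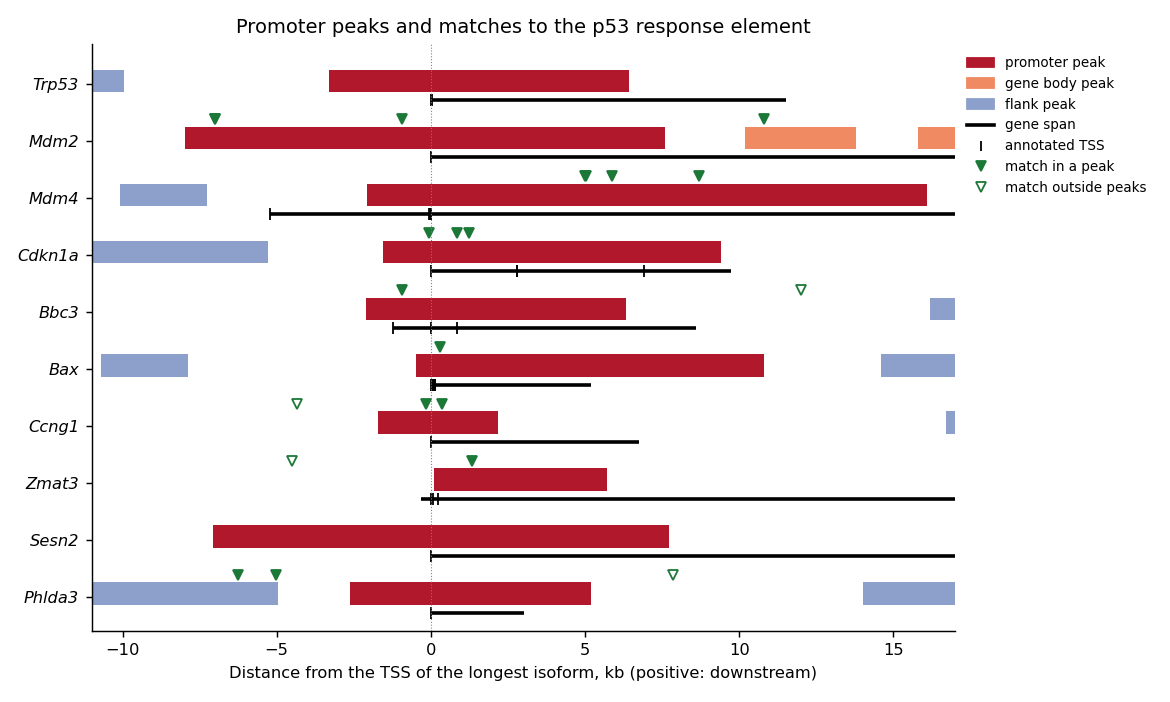
Promoter peaks and matches to the p53 response element (2 mismatches at most), by distance in kb from the TSS of the longest isoform. Bars, lines and ticks are peaks, gene spans and TSSs, filled triangles are matches inside a peak and open triangles matches outside peaks. Filled triangles lie within 5 kb of the TSS at 6 genes, and Trp53 and Sesn2 have no triangle in the window drawn.

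The width of the peaks alone raises the number of matches they hold, so matches were also counted per length. The promoter peaks of the 10 genes together span 106 kb and held 15 matches, 141 per Mb, with overlapping matches counted singly. All promoter peaks held 41.9 matches per Mb, all peaks 48.1 and the whole genome 31.4. The matches were thus denser under the promoter peaks of these genes than under promoter peaks in general, a description with no test.

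The promoters of the 10 genes resembled those of other marked genes in base composition. The median ratio of observed to expected CpG within 1 kb of the TSS was 0.606, against 0.622 for genes with a marked promoter and 0.371 for all genes. It ranged from 0.15 at Cdkn1a to 0.848 at Mdm2, which was higher than at 96.0% of all genes. The 250 bases before the Mdm2 start site, from the same RefSeq table, hold 29 CpGs, again in capitals:
Mdm2, chr10:117710759-117711008, minus strand: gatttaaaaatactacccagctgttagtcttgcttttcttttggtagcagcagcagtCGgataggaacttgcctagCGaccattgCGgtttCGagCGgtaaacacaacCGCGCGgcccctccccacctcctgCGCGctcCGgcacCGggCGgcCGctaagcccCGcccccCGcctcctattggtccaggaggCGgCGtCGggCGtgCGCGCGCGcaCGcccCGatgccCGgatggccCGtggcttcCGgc
Of the 10 genes, 9 had an entry in the table, and none of their windows contained TATAAA on the gene's strand, letters found in 7.59% of all windows. The letters GGGCGG, on either strand, occur in 32.7% of all windows and in 8 of the 13 windows of these genes. They are present at 6 genes (Mdm2, Cdkn1a, Bbc3, Bax, Sesn2 and Phlda3), for Cdkn1a before the internal start and not before the first, and in no window of Trp53, Mdm4 or Ccng1.

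Outside the promoters, 3 of the 10 genes had a peak inside the gene (Mdm2, Mdm4 and Zmat3), close to the share of 26.7% among genes with a marked promoter and above 16.9% among all genes. These 4 peaks measured 3598 to 9936 bp. All 10 genes had a flank peak within 50 kb, as did 63.2% of all genes, with a median of 3.5 per gene, against 2 for genes with a marked promoter and 1 for all genes. Of the 41 flank peaks, 26 overlapped a promoter of another gene, 10 lay inside another gene and 5 lay in none, so most are also peaks of the neighbours. Those 5 lay near Bbc3, Mdm4, Phlda3, Sesn2 and Trp53, 1 each. Flank peaks lay upstream in 23 cases and downstream in 18, and their median width was 2865 bp, the narrowest being 468 bp (near Trp53) and the widest 21697 bp (near Cdkn1a). The peaks nearest to the limit of 50 kb were 1 at 49.9 kb from Phlda3, of 4017 bp, which was counted, and 1 at 50.3 kb from Cdkn1a, of 9963 bp, which was not.

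The other genes of the p53 pathway were described by lists. Of 52 genes, 46 had a marked promoter (88.5%, 95% Wilson interval 77.0 to 94.6%), against 43.6% of all genes. The median promoter peak of the 46 measured 2.78 kb. Of the 52, 13 (25%) had a p53 match in a peak within 5 kb, against 5.13% of all genes and 11.4% of genes with a marked promoter. The kinases that act on p53 or its regulators were marked in 6 of 6 cases, with the widest peak at the checkpoint kinase gene Chek2 (6415 bp), and the regulators in 10 of 10, with the widest at the deubiquitinase gene Usp7 (47209 bp). The relatives of p53, Trp63 and Trp73, were the 2 of the family without a mark, and the nearest peaks lay 39.1 and 2.16 kb from their TSSs. Both had peaks elsewhere in the gene, 1 in Trp63 and 2 in Trp73. Of the apoptosis targets 8 of 10 were marked. The death receptor gene Fas and the membrane protein gene Perp were not, with the nearest peaks 97.9 and 94.2 kb away, and Bid, which encodes a BH3-only protein, had the widest peak (20779 bp). Of the cell cycle and repair targets 10 of 12 were marked, with the widest peak at Gtse1 (10835 bp). The exceptions were Sfn, which encodes the 14-3-3 sigma protein, at 7.98 kb from a peak, and Rprm, which encodes the arrest protein reprimo, at 851 kb. The metabolic and other targets were marked in 12 of 12 cases, and the widest peak there was that of Trp53cor1, already described upstream of Cdkn1a. Ak1 and Lif of this list, and the regulator Sirt1, were marked at another TSS only. The nearest peaks lay 5.77, 8.9 and 10.6 kb from the TSSs of their longest isoforms. The list gives positions that passed the authors' thresholds, so a promoter without a peak is one with no listed peak.

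**Figure D5:**
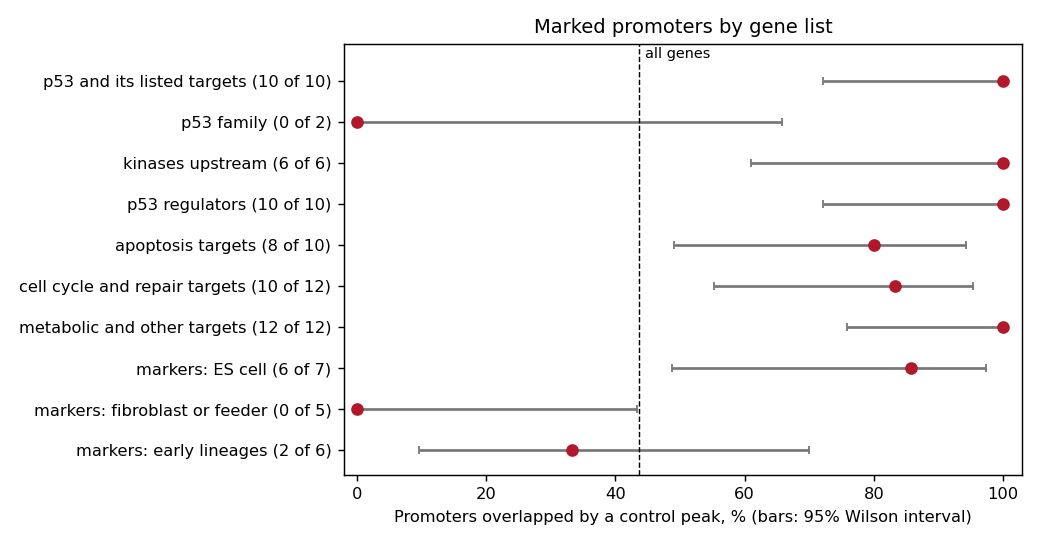
Share of promoters overlapped by a control peak in each list, in percent, with the counts beside the names. Points are shares, bars are 95% Wilson intervals that cover counting error only, and the dashed line is the share over all genes, 43.6%. The 10 genes, the upstream kinases, the regulators and the metabolic and other targets are at 100%, and the p53 family and the fibroblast markers at 0%.

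Markers of cell types were checked in the same list. Of 7 ES cell markers 6 were marked (Pou5f1, Nanog, Sox2, Zfp42, Tfcp2l1 and Tbx3, but not Dppa3), with the widest peak at Tfcp2l1 (71785 bp). Of 5 fibroblast markers (Col1a1, Col1a2, Col3a1, Thy1 and Dcn) 0 were marked. Of 6 markers of early lineages 2 were, Gata4 and Gata6, the latter with the wider peak (2607 bp), while Sox17, T, Neurod1 and Cdx2 were not. The list has no height, score or count, so depth and the strength of the mark at the 10 genes cannot be read from it, and levels under NVP-2 and ActD were not analysed here.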

How the data were processed

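H3K27ac ChIP-seq peaks of control mESCs were analysed. The authors trimmed reads with Cutadapt, aligned them with bwa meme to mm10 and human sequence combined, discarded duplicates (Picard 2.9.1) and reads of low mapping quality (SAMtools 1.4), called peaks with LanceOtron, merged those within 2 kb and filtered them by height and distance to ATAC-seq summits. Both control replicates share 1 deposited list, whose values are positions in bp, with no score or count, so no replicate error or test is possible. Depth cannot be read from the list. The study states unique reads for both control libraries, which differ, and these are not printed here. Merging widens peaks, and thresholds remove weak ones.

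Peaks were compared with GENCODE M21 (GRCm38, the same build as mm10), an earlier release than the authors used, for protein-coding and lincRNA genes and transcripts. A promoter was ±1 kb around any TSS, and an overlap of 1 bp counted. A peak at no promoter of the gene but inside it was a gene body peak, and one within 50 kb a flank peak. Distances, reach and coverage were measured from 1 TSS per gene, where the isoform spanning most of the genome starts (called the longest isoform), and widths are of the widest promoter peak. Response elements were searched in the GRCm38.p6 sequence. Wilson intervals are at 95%. The functions were tested on simulated data. The 10 genes and the other lists were chosen with earlier results of these data known. In the other lists, genes were named when 5 or fewer were marked or unmarked, for the widest peak, or for a mark only at another TSS. Alternatives were other promoter windows, isoforms, peak filters, flank limits and motif settings. Scripts ran in Python 3.11.15 (pandas 2.3.3, numpy 2.4.6, scipy 1.17.1), with plots by matplotlib 3.10.9. Treated samples were not analysed here.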

Additional observations from a re-analysis of the deposited data

How the results depend on the processing

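All 10 genes had a marked promoter under each of the 7 alternative definitions, under which 39.0 to 44.6% of all genes had one. The 46 marked of the 52 other pathway genes were recounted under 4 of these definitions and were 46 within 500 bp and within 2 kb of a TSS, and 43 with the longest isoform only and with peaks of at least 1 kb only. The count of 4 gene body peaks became 11 when peaks were classified by their midpoint. The 41 flank peaks became 16 within 20 kb, 81 within 100 kb and 5 without peaks at another gene. The 6 genes with a p53 match in a peak became 10 with 3 mismatches allowed, and were 4 with at most 1 mismatch, 5 with a spacer of 0 to 13 bases and 1 mismatch (7.05% of all genes), 5 within 1 kb (1.98%) and 8 within 10 kb (7.72%). Among the values of single genes, 36 of 50 for flank peaks changed (26 of them by over 1.5 times or to or from 0), as did 8 of 30 for gene body peaks, 10 of 50 for matches and 0 of 70 for marked promoters. No paired analysis was possible because both control replicates share 1 list without values per replicate, and for the same reason no replicate could be left out. Depth limits which peaks are listed, by an amount the list does not show.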
